A study of Homo sapiens with 36 samples.

Results

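The comparison described here is propionate (PRO) alone against control (Ctrl) after 24 h in HepG2 cells, and it rests on 6 of the 36 RNA-seq samples, namely the 3 labelled PRO and the 3 labelled Control at 24 h. HepG2 cells derive from a human liver tumour and form an established line. All samples are of this 1 line, the cells were kept in serum-free DMEM from the start of the treatment, and each sample is a pool of 3 cultures of 1 independent experiment. PRO cells received 70 µM propionate dissolved in water. Ctrl cells received BSA, ethanol and DMSO but none of the compounds. The methods of the study do not state whether PRO cells also received these. The remaining groups were DHA (a long-chain n-3 fatty acid), protocatechuic acid (PCA), DHA + PRO and DHA + PCA, and every group was taken at 6 h and at 24 h in 3 replicates. The question was which transcripts differ when propionate is the only compound added.

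Propionate is a short-chain fatty acid that gut bacteria release from fibre and that the liver takes up from portal blood. Monocarboxylate transporters carry it into the cell, acyl-CoA synthetases activate it to propionyl-CoA, and propionyl-CoA carboxylase and the vitamin B12-dependent methylmalonyl-CoA mutase turn it into succinyl-CoA, which enters the TCA cycle and can serve gluconeogenesis. Short-chain fatty acids are also known as ligands of the G protein-coupled receptors FFAR2 and FFAR3 and, at high levels, as inhibitors of histone deacetylases.

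Over the 36 libraries 1 stood apart in depth, DHA + PRO replicate 2 at 24 h with a total count of 42326734. Total counts were 5973164 to 7541114 in Ctrl and 6944225 to 8657882 with PRO. Libraries differed in how their counts depended on the GC content of the gene, and PRO replicate 1 stood furthest apart at 24 h. Its log2 CPM, the counts scaled to the library total, fell by 0.274 for every 10 percentage points of GC content relative to the mean of the 24 h libraries, where the other 5 libraries compared had slopes from −0.0746 to 0.0560. In replicate 1 the median log2 difference between PRO and Ctrl was 0.26 for the 991 genes with a GC content of 36 to 39% and −0.31 for the 551 genes of 63 to 66%. Replicate 3 went the same way with 0.075 and −0.24, whereas replicate 2 gave −0.011 and 0.081. A GC-content offset, estimated for each library by a smoothing spline, brought these 6 medians to between −0.0089 and 0.014. Comparisons are given without and with that offset. The replicate number was a factor in both fits, as the comparison was defined with it. PRO and Ctrl samples of one number deviated together from their group means. For PRO replicate 2, however, the correlation with its own Ctrl (0.133) was lower than with Ctrl replicate 3 (0.182).

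**Figure D1:**
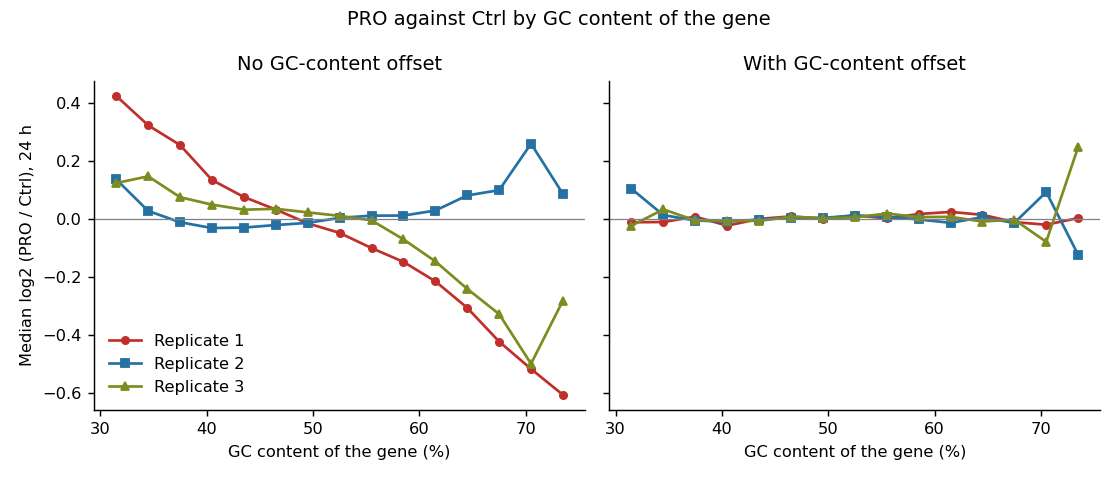
Median log2 difference between PRO and Ctrl at 24 h (vertical axis) by GC content of the gene in percent (horizontal axis), for each replicate number, without (left) and with (right) a GC-content offset per library. Without the offset replicates 1 and 3 slope downwards and replicate 2 slightly upwards, and with it the medians lie near 0 except in the outermost bins, the last of which holds 6 genes.

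With the GC-content offset, SPTSSA of sphingolipid synthesis (log2 difference 0.90, SE 0.124), the osteopontin gene SPP1 (0.36, SE 0.0621) and 9 genes of cytosolic ribosomal proteins were higher with PRO, and the glycogen-targeting subunit PPP1R3C (−0.79, SE 0.137) and the thioredoxin-binding TXNIP (−0.32, SE 0.0685) were lower, with 3 samples a group. Genes of propionate catabolism and lipid synthesis did not pass. Without the offset, PRO changed 0 of the 11893 genes tested at 24 h. A gene was counted when its average log2 CPM was above 0 and its p in edgeR's quasi-likelihood test, adjusted by Benjamini and Hochberg's method, was at most 0.05, so that 0.0% of genes were called. At an unadjusted p under 0.05 there were 1181 genes (9.93%), 625 higher (5.26%) and 556 lower (4.68%), and the lowest adjusted p of this test was 0.0695. DESeq2's Wald test gave 18 genes and edgeR's likelihood ratio test 36. With the GC-content offset 61 genes (0.513%) passed, 40 higher and 21 lower with PRO, and of these only SPTSSA and PPP1R3C (2 genes) when the replicate number was not a factor. All 61 had the same direction without the offset. In 40 of the 61 the 3 PRO and 3 Ctrl samples did not overlap in CPM, as in 8.38% of all genes (4.45% with PRO higher and 3.94% with PRO lower). All 3 within-replicate differences had one sign in 60 of the 61 with the offset, and in 30.7% of all genes (30.1% without it). The 61 genes were chosen by a test on these same libraries, so the 40 and the 60 follow in part from that choice. Without PRO replicate 2 the count without the offset was 807 genes (119 with it), and it was 0 without any other single library. The set of 61 depended on single libraries too. Of the 61 genes, 52 passed again without PRO replicate 2, 42 without Ctrl replicate 2, 18 without PRO replicate 3, 14 without PRO replicate 1, 13 without Ctrl replicate 3 and 2 without Ctrl replicate 1. With replicate 1 left out of every group none of them passed, and the lowest adjusted p in edgeR was then 0.0777 (756 genes at an unadjusted p under 0.05). The genes that passed in all 6 fits without 1 library were SPTSSA and PPP1R3C.

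SPTSSA, the small subunit A of serine palmitoyltransferase, the enzyme that starts sphingolipid synthesis, had the smallest p with the offset and, after SPP1, the next smallest without it. The gene occupies chromosome 14 of hg19 from 34902144 to 34931468, and 36.7% of its transcript is G or C. Its level was 109.5, 114 and 96.03 CPM in Ctrl and 298, 185 and 181 CPM with PRO. The groups did not overlap, and PRO replicate 1, the library with the steepest GC slope, was the highest of the 6. The log2 difference was 1.04 without the offset (edgeR's adjusted p = 0.0695) and 0.90 with it (SE 0.124, adjusted p = 8.38e-05), and the 3 within-replicate differences with the offset were 1.17, 0.69 and 0.82. The adjusted p with the offset stayed at or below 0.0147 when any 1 of the 6 libraries was left out.

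A group of other transcripts with low GC content was higher with PRO in the same manner. RNF138, a ubiquitin ligase, was at 18.6, 25.2 and 15.7 CPM in Ctrl and 49.5, 33.8 and 28.3 CPM with PRO, and its log2 difference with the offset was 0.76 (SE 0.132, edgeR's adjusted p = 0.00221, or 0.0923 without Ctrl replicate 1). LYPLA1, an acyl-protein thioesterase that removes palmitate from proteins, was at 52.4, 53.3 and 44.6 CPM in Ctrl and 98.3, 86.2 and 76.8 CPM with PRO, with a difference of 0.64 (adjusted p = 0.0036, or 0.0824 without Ctrl replicate 1). TMED7, a p24 protein of transport between endoplasmic reticulum and Golgi, was at 105, 122 and 93.5 CPM in Ctrl and 199, 145 and 138 CPM with PRO. MICU3, a regulator of mitochondrial calcium uptake, was at 5.32, 3.43 and 3.49 CPM in Ctrl and 15.8, 8.53 and 5.61 CPM with PRO. In all 4 genes every PRO sample lay above every Ctrl sample, and PRO replicate 1 was the highest. With the offset the differences of TMED7 and MICU3 were 0.45 (adjusted p = 0.00341, or 0.0895 without Ctrl replicate 1) and 1.08 (adjusted p = 0.0222, or 0.302 without PRO replicate 1).

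NEK7, a mitotic kinase that also acts in the NLRP3 inflammasome, was at 9.81, 14.5 and 13.6 CPM in Ctrl and 36.2, 20.2 and 19.7 CPM with PRO. The value of PRO replicate 1 was again the highest, and the within-replicate differences with the offset were 1.55, 0.47 and 0.43. The adjusted p of NEK7 in edgeR was 0.0161 with the offset, or 0.353 without PRO replicate 1. The tetraspanin TSPAN13, with a GC content of 41.5%, was at 40.6, 35.97 and 30.2 CPM in Ctrl and 66.5, 45.1 and 43.02 CPM with PRO and the nuclear envelope protein TMEM209 at 16.6, 21.9 and 18.7 CPM in Ctrl and 40.1, 32.2 and 24.2 CPM with PRO. Their differences with the offset were 0.48 (edgeR's adjusted p = 0.0161, or 0.294 without PRO replicate 1) and 0.66 (0.0121, or 0.24 without Ctrl replicate 1). ADAM9, a membrane metalloprotease, was at 81.9, 93.6 and 80.99 CPM in Ctrl and 127, 103 and 124 CPM with PRO, and there PRO replicates 1 and 3 were close to each other. FOXN2, a forkhead transcription factor, was at 54.5, 46.9 and 42.8 CPM in Ctrl and 86.2, 64.4 and 58.8 CPM with PRO, the histone chaperone ANP32E at 115, 113 and 95.9 CPM in Ctrl and 187, 133 and 122 CPM with PRO and glycerol kinase (GK), which makes glycerol 3-phosphate for triglyceride synthesis, at 44.05, 55.8 and 41.8 CPM in Ctrl and 78.5, 63.5 and 56.7 CPM with PRO. Each of these 3 also passed with the offset, with adjusted p values of 0.0268, 0.0248 and 0.0412. FOXN2 failed in all 6 fits without 1 library, with a lowest adjusted p of 0.0658 in edgeR. ANP32E and GK were at 0.27 and 0.398 without Ctrl replicate 1. UQCRB, a subunit of respiratory complex III, was at 114, 101 and 91.7 CPM in Ctrl and 148, 129 and 116 CPM with PRO and did not pass (adjusted p = 0.0539 with the offset).

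Genes with a GC content under 40% made up 16 of the 40 genes that were higher with the offset and 15.8% of all genes with a known GC content. In the 24 libraries that received no propionate SPTSSA ran from 96.0 to 317 CPM, RNF138 from 15.7 to 49.1 CPM and MICU3 from 3.10 to 12.2 CPM. The highest values of all 36 libraries, 364, 54.7 and 15.8 CPM, were found in DHA + PRO replicate 1 at 6 h. SPTSSA was at 317, 279 and 234 CPM in Ctrl at 6 h, which is above the Ctrl samples of 24 h in every replicate. In DHA + PRO at 6 h it was at 364, 112 and 107 CPM, in libraries with GC slopes of −0.286, 0.138 and 0.158 relative to the 6 h mean. With DHA alone at 24 h it was at 204, 168 and 108 CPM. In all, 12 of the 33 libraries outside PRO at 24 h, among them 2 of the 15 of 24 h, reached the lowest PRO value of SPTSSA. For FOXN2 the numbers were 8 of 33 and 0 of 15. At 24 h the libraries outside PRO that reached it for SPTSSA were DHA replicate 1 and DHA + PCA replicate 2, with GC slopes of −0.0638 and −0.110. At 6 h levels of at least 270.0 CPM were also found at a slope close to 0, in Ctrl replicate 2 (−0.0034), DHA replicate 1 (−0.0062) and DHA replicate 2 (0.0170). Slopes of 6 h are relative to the mean of the 6 h libraries, so their 0 need not match that of 24 h. The part that library composition beyond the offset has in the difference between PRO and Ctrl was not tested.

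**Figure D2:**
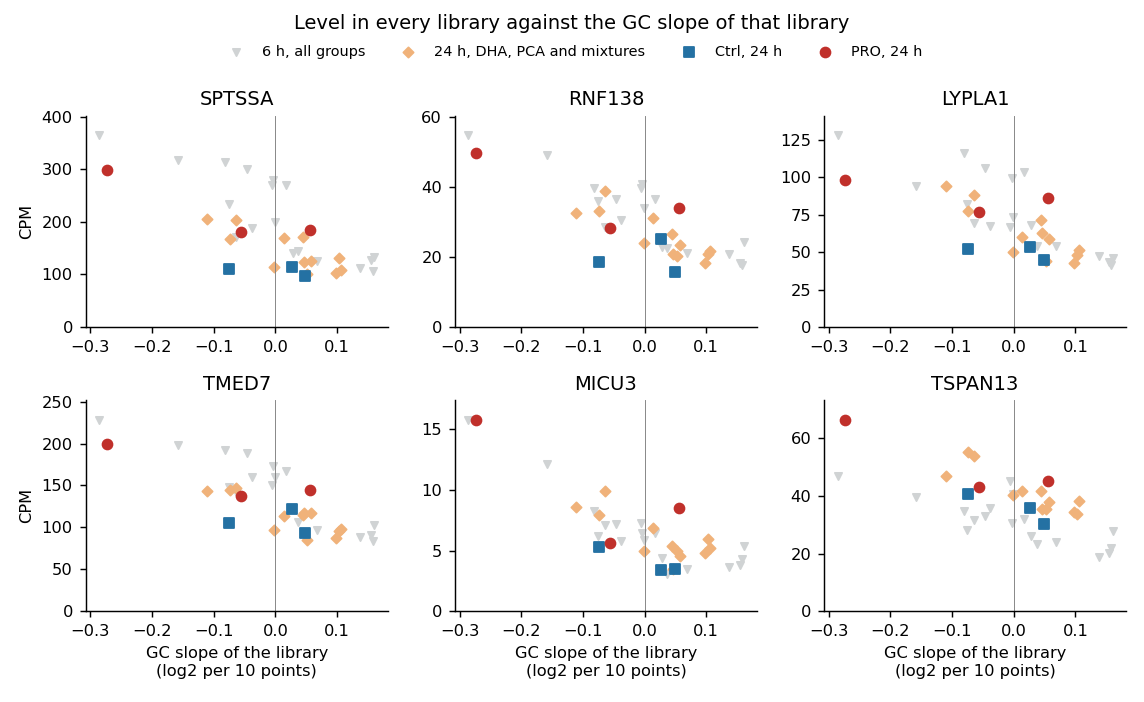
CPM of 6 genes (vertical axes) in all 36 libraries against the GC slope of the library in log2 units per 10 percentage points (horizontal axes). Red circles are PRO at 24 h, blue squares Ctrl at 24 h, orange diamonds the other groups of 24 h and grey triangles all groups of 6 h. PRO replicate 1 lies at a slope of −0.274 and DHA + PRO replicate 1 of 6 h at −0.286, with SPTSSA at 298 and 364 CPM. Slopes are relative to the mean of the libraries of the same time, so 6 h and 24 h have separate zero points.

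Other transcripts were higher at a GC content above 40%. SPP1 encodes osteopontin, a secreted phosphoprotein, and its gene is on chromosome 4 of hg19 from 88896802 to 88904563. It was at 199, 219.7 and 223 CPM in Ctrl and 266, 264 and 328 CPM with PRO, without overlap. The log2 difference was 0.42 without the offset (edgeR's adjusted p = 0.0695) and 0.36 with it (SE 0.0621, adjusted p = 0.00221, or 0.0535 without Ctrl replicate 1). The stress-responsive RNA-binding protein YBX1 was at 458, 498 and 534 CPM in Ctrl and 509, 551 and 676 CPM with PRO, with a difference of 0.24 with the offset (adjusted p = 0.0404). The peroxiredoxin PRDX5 was at 103, 107 and 114 CPM in Ctrl and 95.9, 133 and 142 CPM with PRO. Without the offset its difference in replicate 1 had the opposite sign (−0.11), and with it the 3 differences were 0.11, 0.28 and 0.45 (adjusted p = 0.0371). YBX1 and PRDX5 were named after their values were seen, and each failed in at least 4 of the 6 fits without 1 library.

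Among the genes that were lower with PRO, PPP1R3C came first. It encodes a glycogen-targeting subunit of protein phosphatase 1, which promotes glycogen synthesis, and its gene is on chromosome 10 of hg19 from 93388197 to 93392858. It was at 23.3, 26.3 and 27.3 CPM in Ctrl and 16.8, 15.6 and 13.4 CPM with PRO. No PRO sample reached the lowest Ctrl sample, and PRO replicate 3 was the lowest of the 6. The log2 difference was −0.74 without the offset (edgeR's adjusted p = 0.0716) and −0.79 with it (SE 0.137, adjusted p = 0.00221), and it remained at or below an adjusted p of 0.0398 without any 1 library. The transcription of TXNIP is known to follow glucose, and its gene is on chromosome 1 of hg19 from 145438438 to 145442628. It was at 181, 195 and 198 CPM in Ctrl and 149.5, 162 and 156 CPM with PRO. Again the groups did not overlap, and the 3 differences with the offset were −0.35, −0.24 and −0.38 (fitted −0.32, adjusted p = 0.0161, or 0.12 without PRO replicate 1).

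SLCO2B1, a hepatic uptake transporter of organic anions, was at 58.7, 65.8 and 66.1 CPM in Ctrl and 36.3, 49.6 and 51.5 CPM with PRO, and its difference with the offset was −0.45 (edgeR's adjusted p = 0.00743, or 0.094 without PRO replicate 1). SIVA1, a proapoptotic protein, was at 73.5, 65.5 and 89.7 CPM in Ctrl and 39.05, 58.6 and 46.8 CPM with PRO (−0.52, adjusted p = 0.00509, or 0.0895 without Ctrl replicate 1). The orphan receptor GPRC5C was at 102, 128 and 138 CPM in Ctrl and 68.6, 107 and 85.5 CPM with PRO and the sorting receptor SORL1 at 174, 186 and 191 CPM in Ctrl and 127, 171 and 150.5 CPM with PRO. Their differences with the offset were −0.36 (adjusted p = 0.0161, or 0.14 without PRO replicate 3) and −0.31 (0.0211, or 0.248 without PRO replicate 1). TNS1, a protein of focal adhesions, was at 23.9, 35.4 and 31.3 CPM in Ctrl and 10.3, 25.3 and 22.6 CPM with PRO, and PRO replicate 1 was by far the lowest of the 6. PDLIM2, which also binds the cytoskeleton, was at 20.6, 20.3 and 24.2 CPM in Ctrl and 9.51, 18.1 and 13.4 CPM with PRO and CTGF, a matricellular target of YAP signalling, at 450.1, 527 and 492 CPM in Ctrl and 375, 494 and 368 CPM with PRO. These 3 passed with the offset at adjusted p values of 0.031, 0.0336 and 0.0374, but TNS1 and PDLIM2 were both at 0.302 without PRO replicate 1 and CTGF at 0.257 without PRO replicate 3. The fucosyltransferase FUT6 was at 40.4, 52.4 and 54.3 CPM in Ctrl and 24.2, 43.8 and 35.97 CPM with PRO. It passed at 0.0371 with the offset, but was at 0.271 without Ctrl replicate 1.

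Some genes with small p values without the offset did not pass in either fit. C19orf80, which encodes the lipoprotein lipase regulator ANGPTL8, was at 28.6, 24.2 and 29.01 CPM in Ctrl and 21.5, 17.9 and 10.7 CPM with PRO. The cytokine TNFSF14 was at 10.1, 4.78 and 3.36 CPM in Ctrl and 2.18, 1.45 and 3.17 CPM with PRO, and carbonic anhydrase IX (CA9), a marker of hypoxia, at 15.96, 14.2 and 11.6 CPM in Ctrl and 10.99, 6.36 and 8.34 CPM with PRO. None of the 3 had overlapping groups, and edgeR's adjusted p with the offset was 0.0539, 0.0539 and 0.174. Of the remaining lower genes, ARL2BP and SKP1 passed with log2 differences of −0.34 and −0.29. Their adjusted p values in edgeR rose to 0.216 without PRO replicate 1 and to 0.314 without Ctrl replicate 1, respectively. CCDC152, which overlaps the gene of selenoprotein P, and TUBB1, which neighbours a gene of ATP synthase, also passed (−0.56 and −0.34), but reads of overlapping genes cannot be told apart in counts without strand, and these 2 are uncertain. Of the other genes that passed, the nucleotidase NT5C (26.8, 24.8 and 27.1 CPM in Ctrl and 30.7, 36.9 and 32.8 CPM with PRO), the ubiquitin protease USP3 (33.1, 34.2 and 34.4 CPM in Ctrl and 55.5, 38.04 and 49.9 CPM with PRO) and the Wnt inhibitor DKK1 (379.8, 393 and 327 CPM in Ctrl and 636, 362 and 523 CPM with PRO) were higher, and the zinc transporter SLC39A5 (140.1, 154 and 171 CPM in Ctrl and 89.8, 151 and 108 CPM with PRO) and the glutamate transporter SLC1A2 (56.4, 60.8 and 62.3 CPM in Ctrl and 40.3, 55.4 and 48.5 CPM with PRO) were lower. They were named after their values were seen, and each failed in at least 4 of the 6 fits without 1 library.

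**Figure D3:**
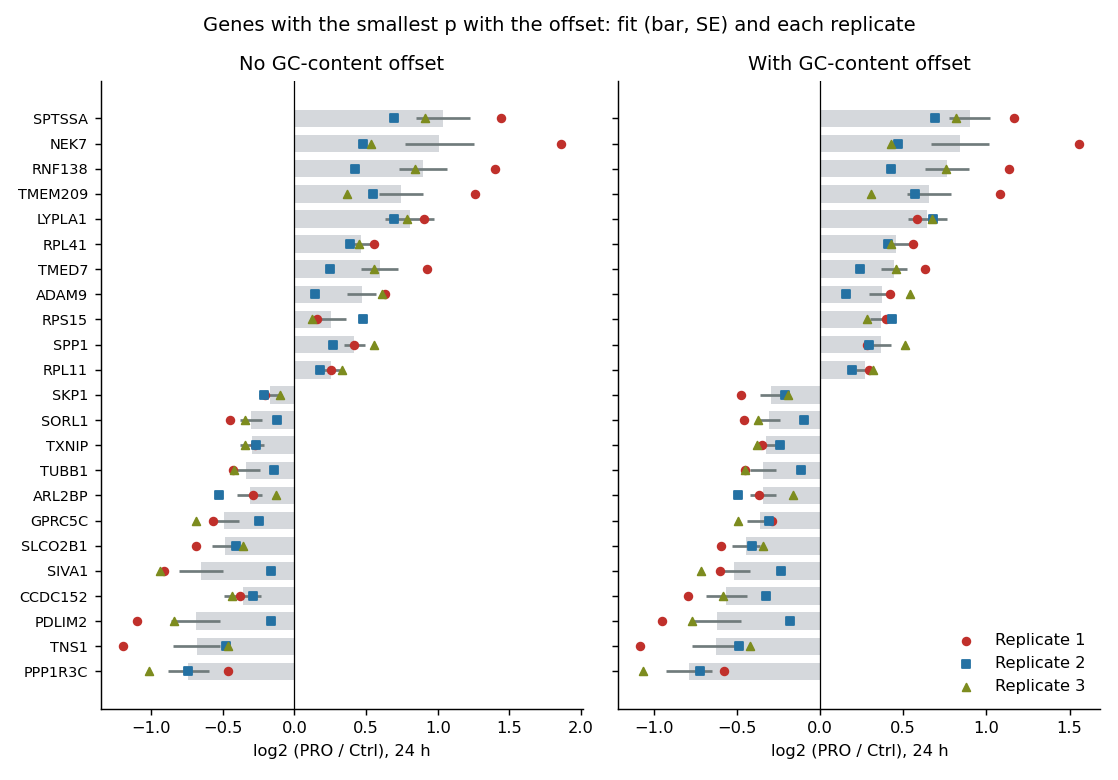
Log2 difference between PRO and Ctrl at 24 h (horizontal axes) of 11 higher and 12 lower genes among those with the smallest p in the fit with the GC-content offset, without (left) and with (right) the offset. Bars are the fitted values with their SE and symbols the 3 within-replicate differences, and replicate 1 gives the largest difference for SPTSSA, NEK7, RNF138, TMEM209, PDLIM2 and TNS1, among others, in both panels.

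Of all lists, that of the cytosolic ribosomal proteins held the most genes that were higher. Of the 85 tested, 9 passed with the offset as higher and 0 as lower, against 0.336% and 0.177% of all genes, and 0 passed without it. Their mRNAs are known to start with a run of pyrimidines, through which mTOR signalling sets their translation. The starts of 7 of the 9 passing genes are shown for that reason, as 30 bases before and 20 after the annotated start in RefSeq (GRCh38.p14). The pyrimidine run that covers the first transcribed base is in capitals.
RPL41 (chr12:56116603-56116652, plus strand): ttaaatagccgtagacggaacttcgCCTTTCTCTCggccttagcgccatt
RPL11 (chr1:23691776-23691825, plus strand): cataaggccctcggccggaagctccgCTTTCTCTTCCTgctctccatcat
RPL19 (chr17:39200293-39200342, plus strand): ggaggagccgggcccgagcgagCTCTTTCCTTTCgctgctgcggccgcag
RPL36AL (chr14:49620607-49620656, minus strand): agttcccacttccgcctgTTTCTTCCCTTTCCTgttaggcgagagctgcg
RPL36 (chr19:5690265-5690314, plus strand): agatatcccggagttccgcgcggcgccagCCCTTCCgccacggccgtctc
RPS15 (chr19:1438366-1438415, plus strand): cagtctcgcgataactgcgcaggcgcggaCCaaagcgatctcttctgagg
RPS29 (chr14:49598691-49598740, minus strand): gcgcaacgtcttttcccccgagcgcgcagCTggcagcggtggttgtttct
Counted with its bases before the annotated start, the run was 10 bases long in RPL41, 12 in RPL11 and RPL19, 15 in RPL36AL, 7 in RPL36 and 2 in RPS15 and RPS29. The part from the annotated start onwards is shorter in each of these 7 genes. Counted only from the annotated start onwards, the run reached 6 bases in RPL11 and RPL36 and in none of the others shown. A run of at least 6 bases, counted with the bases before the start, was found in 5 of these 7 genes. By that same count it was found in 75.0% of the 68 tested ribosomal protein genes with a window in RefSeq. Over all 27305 genes with a window the share was 9.25%. Where a gene has more than 1 annotated start, the one with the longest run was taken.

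RPL41, a short and basic protein of the large subunit, is encoded on chromosome 12 of hg19 from 56510374 to 56511616. It was at 236, 300.2 and 362 CPM in Ctrl and 348, 392 and 494 CPM with PRO. The groups overlapped, while each replicate was higher with PRO than its own Ctrl, by 0.56, 0.41 and 0.42 on the log2 scale with the offset. The fitted difference was 0.46 without the offset (edgeR's adjusted p = 0.0716) and 0.46 with it (SE 0.0734, adjusted p = 0.00116, or 0.0807 without Ctrl replicate 1). RPL11, which also binds the p53 regulator MDM2, was at 745, 751 and 694 CPM in Ctrl and 888, 852 and 875 CPM with PRO, without overlap (0.27, SE 0.0542, adjusted p = 0.0121, or 0.0895 without Ctrl replicate 1). RPS15 of the small subunit was at 177, 215 and 272 CPM in Ctrl and 197, 299.5 and 296 CPM with PRO (0.37, adjusted p = 0.0036, or 0.0895 without Ctrl replicate 1). RPL19 was at 992, 982 and 1029 CPM in Ctrl and 1123, 1123 and 1282 CPM with PRO and RPS29 at 209, 243 and 228 CPM in Ctrl and 268, 298 and 264 CPM with PRO, and in neither did the groups overlap. RPL8, RPL36 and RPL36AL passed with differences of 0.25, 0.27 and 0.28. Their adjusted p values in edgeR were 0.0358, 0.0496 and 0.0454 with the offset and 0.596, 0.519 and 0.180 without it. For RPS15 the adjusted p without the offset was 0.397. The difference of RPL8 in replicate 1 was −0.059 without the offset.

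Over all 85 members the median log2 difference was 0.075 without and 0.090 with the offset, against −0.0080 and −0.0010 over all genes. The offset medians in replicates 1, 2 and 3 were 0.075, 0.10 and 0.082. With the offset 61 members lay above 0. At an unadjusted p under 0.05 they numbered 28 higher and 4 lower, beside 5.78% and 5.21% of all genes. The lowest member without the offset was RPL21 (−0.48 with it, SE 0.474), which had only 1.66, 3.28 and 1.88 CPM in Ctrl. Ribosomal protein genes have many processed pseudogenes, and how reads matching several places were treated is not given in the sources used here. In DHA + PRO against DHA, which uses other libraries, the median of the same genes was 0.071. Of them 6 passed as higher and 0 as lower, beside 0.395% and 0.0589% of all genes. At 6 h the median was −0.019 with 34 of 85 above 0. In PRO against PCA at 24 h, RPL41, RPL11 and RPS15 had differences of 0.12, 0.14 and 0.16 with the offset. None of these 3 passed there (edgeR's adjusted p = 0.581, 0.3225 and 0.337). The mitochondrial ribosomal proteins, 77 tested, had a median of 0.036 and 0 passed.

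**Figure D4:**
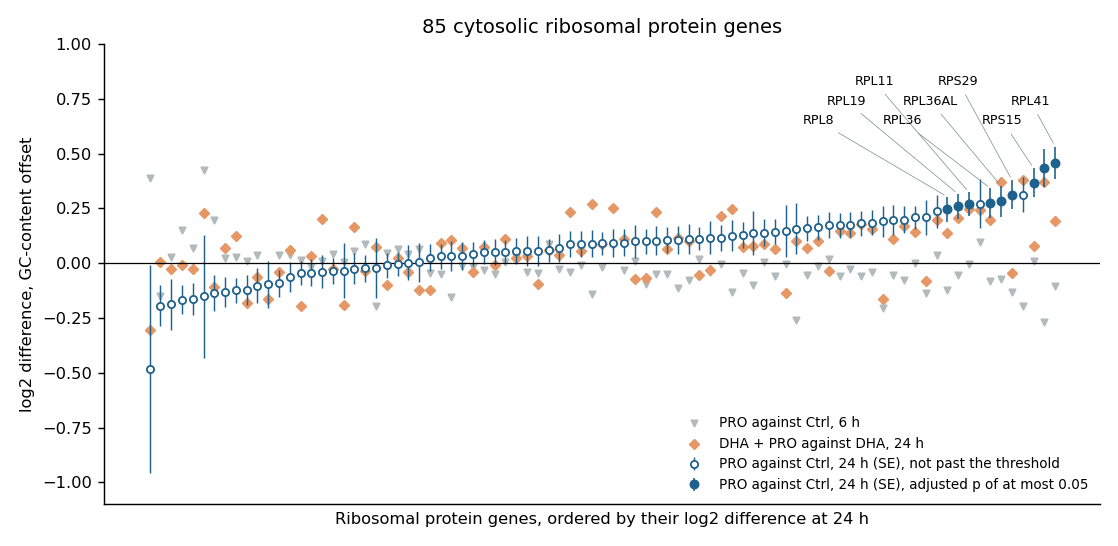
Log2 difference with the GC-content offset (vertical axis) of 85 cytosolic ribosomal protein genes ordered by their value for PRO against Ctrl at 24 h (blue circles with SE, filled where the adjusted p was at most 0.05, with names for 8 of these). Orange diamonds give DHA + PRO against DHA at 24 h and grey triangles PRO against Ctrl at 6 h for the same genes, and 61, 56 and 34 of the 85 lie above 0 in the 3 comparisons.

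The genes that handle propionate itself did not pass. Of 23 genes of its uptake, activation and catabolism, 20 were tested and 0 passed in either fit, with a median difference of −0.012 without and −0.016 with the offset and a lowest adjusted p of 0.499 in edgeR with the offset. The transporter SLC16A1 was at 232, 215 and 208 CPM in Ctrl and 246, 215 and 199 CPM with PRO (−0.052, SE 0.0592). SLC16A3, a lactate exporter, was at 459, 506 and 624 CPM in Ctrl and 304, 626 and 406 CPM with PRO, and its chaperone BSG at 846, 874 and 824 CPM in Ctrl and 739.7, 910.3 and 663 CPM with PRO. Both have a high GC content, and the offset moved their differences from −0.27 to −0.13 and from −0.14 to −0.025. SLC16A7 had 1 to 8 reads in the 6 libraries, and the sodium-coupled transporters SLC5A8 and SLC5A12 had 0 reads in all 6, which allows up to 0.347 to 0.502 CPM in a library (3 reads, counting error only).

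The acyl-CoA synthetases ACSS1, ACSS2 and ACSS3 had differences of −0.0096, −0.072 and 0.11 with the offset. ACSS3, which prefers propionate, was at 78.3, 77.8 and 78.97 CPM in Ctrl and 90.2, 77.8 and 89.5 CPM with PRO. The 2 subunits of propionyl-CoA carboxylase were at 23.1, 20.1 and 20.01 CPM in Ctrl and 23.4, 14.8 and 21.7 CPM with PRO for PCCA and 59.5, 64.8 and 67.8 CPM in Ctrl and 69.9, 67.5 and 68.6 CPM with PRO for PCCB. Methylmalonyl-CoA mutase (MUT) was at 54.5, 60.01 and 63.9 CPM in Ctrl and 66.5, 62.6 and 64.6 CPM with PRO and the epimerase MCEE at 28.6, 22.7 and 20.01 CPM in Ctrl and 22.7, 23.3 and 22.01 CPM with PRO. In each of these 5 genes the groups overlapped. Of the cobalamin genes, MMAB, MMADHC, MMACHC and CD320 had differences between −0.13 and 0.045, and MMAA, at a few CPM, one of −0.097 (SE 0.315). MTRR, which reactivates methionine synthase, was at 53.9, 47.5 and 50.9 CPM in Ctrl and 62.1, 54.1 and 58.3 CPM with PRO, and the succinyl-CoA synthetase subunit SUCLA2 at 38.9, 42.1 and 39.1 CPM in Ctrl and 42.3, 43.1 and 46.9 CPM with PRO. Of the 20 tested members of the list only these 2 had no overlap, beside 8.38% of all genes. Their adjusted p values in edgeR were 0.499 and 0.867 with the offset. SUCLG1, SUCLG2 and HLCS, which attaches biotin to the carboxylase, had differences of 0.065, −0.0042 and −0.11. The 15 genes of valine and isoleucine degradation, another source of propionyl-CoA, had a median of 0.011 with the offset, and the 21 genes of the TCA cycle one of 0.021, and 0 passed in either list. Without the offset the former ran from BCAT2 (−0.22) to DBT (0.21) and the latter from SDHA (−0.12) to IDH3A (0.34).

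Receptors of short-chain fatty acids were hardly detected. FFAR3 had 0 reads in all 6 libraries, as did FFAR1. FFAR2 had 1, 0 and 0 reads in Ctrl and 3, 0 and 0 with PRO, and FFAR4 had 1 read in 1 PRO library. The hydroxycarboxylic acid receptor HCAR2 had 4 to 11 reads and was not tested. HCAR3, its near-identical paralog, was tested at 1.66, 2.69 and 2.96 CPM in Ctrl and 1.83, 1.88 and 2.30 CPM with PRO (−0.24, SE 0.366, edgeR's adjusted p = 0.858). The 28 tested histone deacetylases and acetyltransferases had a median of 0.033 and 0 passed. HDAC3 had the highest difference without the offset (0.17 with it, adjusted p = 0.368) and KAT2B the lowest (−0.40, at 3.66, 4.33 and 3.09 CPM in Ctrl).

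Genes of lipid synthesis, which the study followed, did not pass. None of the 13 genes named by the study passed. With the offset 4 of them were lower and 0 higher at an unadjusted p under 0.05 in edgeR, beside 5.21% and 5.78% of all genes. All 3 within-replicate differences with the offset were below 0 in 6 and above 0 in 1 of the 13, beside 15.2% and 15.5% of all genes. SCD, the desaturase that makes oleate, was at 4066, 4192 and 4153 CPM in Ctrl and 3769, 3818 and 3757 CPM with PRO. It was the only one of the 13 without overlap (−0.14 with the offset, SE 0.0515, edgeR's adjusted p = 0.249). IDI1 of the mevalonate pathway was at 292, 281 and 238 CPM in Ctrl and 318, 229.8 and 242 CPM with PRO, and the offset shifted its difference from −0.033 to −0.20 (adjusted p = 0.144). HMGCS1 had 0.011, SQLE −0.0089, CYP51A1 −0.082 and MSMO1 −0.15 with the offset. For ACACA, FASN, ACLY and ACSS2 of fatty acid synthesis the values were 0.074, −0.034, 0.035 and −0.072, and for the regulators SREBF1 and SREBF2 −0.084 and 0.020. FASN and SREBF1 had differences of −0.20 and −0.22 before the offset. Over the whole cholesterol list of 22 genes the median was −0.028 without and −0.073 with the offset. With the offset 5 of the 22 were lower and 1 higher at an unadjusted p under 0.05, beside 5.21% and 5.78% of all genes, and 0 passed after adjustment. MVK was the lowest without the offset (112, 124 and 118 CPM in Ctrl and 84.6, 103 and 95.2 CPM with PRO, no overlap, −0.20 with the offset) and LBR the highest (0.071). The 17 tested genes of fatty acid synthesis had a median of 0.018 with the offset and the 8 of SREBP regulation one of −0.022. Without the offset the former ran from MLXIPL (−0.20) to ACSL4 (0.32).

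NRF2 targets had the highest median among the lists with the offset. NRF2 is the transcription factor of the antioxidant response. The median of 17 tested genes was 0.11 without and 0.13 with the offset, and the offset medians of replicates 1 to 3 were 0.14, 0.13 and 0.13. Of the 17, 1 passed with the offset as higher, against 0.336% of all genes. At an unadjusted p under 0.05 they numbered 6 higher and 0 lower, against 5.78% and 5.21%, and 7 were higher in all 3 replicates without the offset, against 14.9% of all genes. TALDO1 of the pentose phosphate pathway was at 128, 148 and 156 CPM in Ctrl and 154, 167 and 177 CPM with PRO (0.24 with the offset, edgeR's adjusted p = 0.0523). NQO1 was at 456, 496 and 472 CPM in Ctrl and 525, 484 and 580.1 CPM with PRO, TXNRD1 at 150.4, 151 and 166 CPM in Ctrl and 171, 169 and 187 CPM with PRO and GCLC, which limits glutathione synthesis, at 73.5, 80.8 and 80.99 CPM in Ctrl and 94.3, 81.6 and 91.9 CPM with PRO. TXNRD1 and GCLC did not overlap between groups, but their adjusted p values were 0.389 and 0.368. PIR had the highest and SRXN1 the lowest difference without the offset (0.36 and −0.065). In DHA + PRO against DHA the median of this list was 0.024 and at 6 h 0.023. TALDO1, NQO1, TXNRD1 and GCLC were named after their values were seen.

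Mitotic genes, 32 tested, had a median of 0.094, and their offset medians by replicate were 0.11, 0.18 and −0.022, so that replicate 3 had the opposite sign. NUF2, a kinetochore protein, had the highest difference without the offset (38.6, 33.9 and 40.3 CPM in Ctrl and 70.1, 39.6 and 41.6 CPM with PRO) and CDC20 the lowest (−0.050), and 0 passed. The 39 genes of DNA replication had a median of 0.020, from PRIM2 (−0.34) to POLA2 (0.18). Proteasome subunits had a median of 0.075 without and 0.038 with the offset over 41 genes, with 8 higher and 1 lower at an unadjusted p under 0.05 with the offset, beside 5.78% and 5.21% of all genes, and 0 passing. PSMB3 and PSMB9 were the highest and the lowest without the offset (0.22 and −0.19). Among 76 nuclear subunits of the respiratory chain, whose median was 0.025, ATP5G3 of ATP synthase passed as lower with the offset (326, 271 and 314 CPM in Ctrl and 268, 252 and 279 CPM with PRO, −0.28, edgeR's adjusted p = 0.0412). It was named after its value was seen. NDUFA5 and ATP5D marked the ends of this list without the offset (0.47 and −0.21), with GC contents of 35.04 and 69.5%, and moved to 0.30 and 0.023 with it.

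Among the pathway lists bile acid synthesis had the lowest median, −0.18 without and −0.13 with the offset over 11 tested genes, and −0.18, −0.058 and −0.083 by replicate. No member passed, and 1 was lower at an unadjusted p under 0.05 with the offset, beside 5.21% of all genes. This was NR0B2, the bile acid-induced repressor SHP, named after its value was seen, at 140.0, 189 and 199.7 CPM in Ctrl and 105, 183 and 134 CPM with PRO (−0.26, edgeR's adjusted p = 0.134). AMACR was the lowest without the offset, with no library above 3.09 CPM, and NR1H4, the bile acid receptor FXR, the highest (0.16). The 26 tested genes of hypoxia and glycolysis had a median of −0.080, but by replicate it was −0.054, 0.076 and −0.32, with the opposite sign in replicate 2. PFKP, a phosphofructokinase, was the highest (1.83, 2.69 and 3.22 CPM in Ctrl and 4.81, 3.90 and 5.18 CPM with PRO). Of the 17 genes of gluconeogenesis and anaplerosis (median 0.051), the glucose-6-phosphatase gene G6PC was at 18.8, 16.7 and 21.5 CPM in Ctrl and 12.4, 14.5 and 11.8 CPM with PRO without overlap (−0.57, SE 0.191, adjusted p = 0.192). The 21 tested PPAR alpha targets and genes of fatty acid oxidation had a median of −0.058. ACADM, which opens medium-chain oxidation, was at 70.5, 67.8 and 62.3 CPM in Ctrl and 105, 83.6 and 74.2 CPM with PRO (0.32, adjusted p = 0.0509) and the lipid droplet protein PLIN2 at 311, 323 and 338 CPM in Ctrl and 260.3, 281 and 292 CPM with PRO (−0.23, adjusted p = 0.12), both named after their values were seen. ACADS and VNN1 were the lowest and highest of that list without the offset (−0.40 and 1.25). ATF4 and ER stress genes, 25 tested, had a median of −0.027, with ATF3 highest (0.18) and VLDLR lowest (−0.36) without the offset, and 0 passed.

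**Figure D5:**
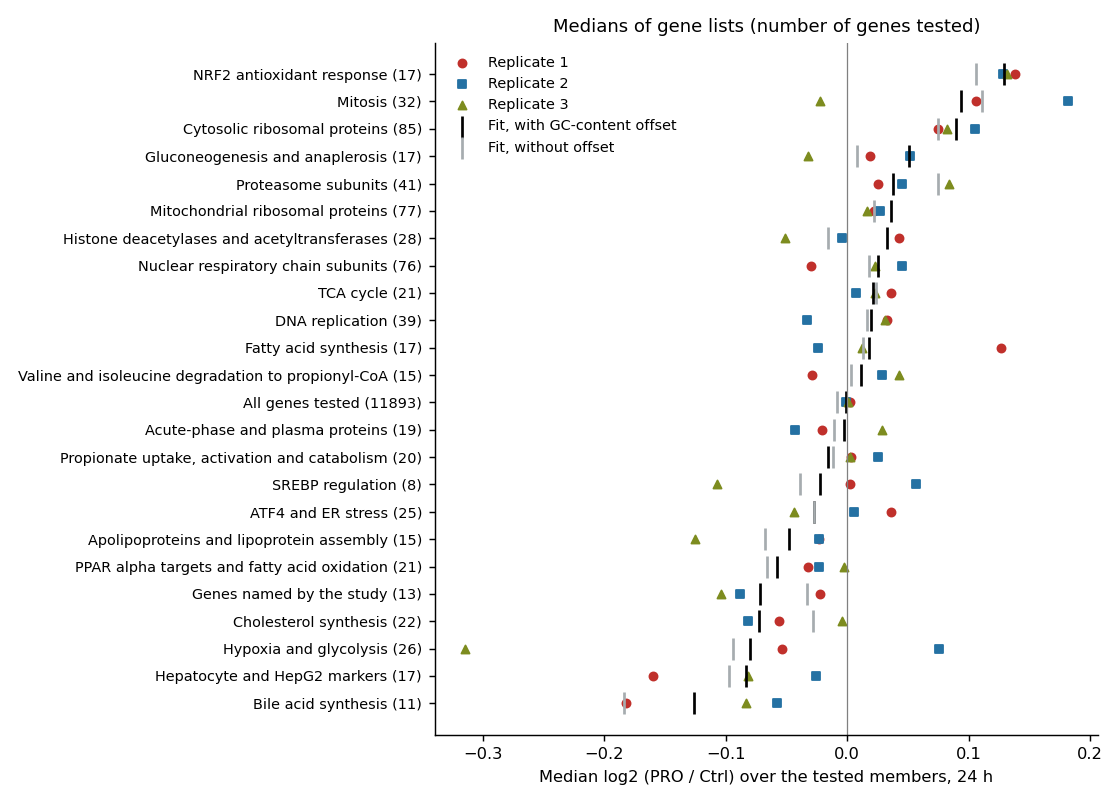
Median log2 difference between PRO and Ctrl at 24 h (horizontal axis) over the tested members of each gene list, with the number of genes tested in brackets. Symbols are the medians of the 3 replicates with the GC-content offset, black and grey ticks the fitted values with and without it, and the 3 replicates nearly coincide for NRF2 targets but lie on both sides of 0 for hypoxia and mitosis.

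Markers of liver cells were expressed at a high level in all 6 libraries, and none of 17 passed. Their summed level was 78200 to 83700 CPM in Ctrl and 76000 to 80600 CPM with PRO. Without the offset 8 of the 17 were lower in all 3 replicates and 0 higher, against 15.2% and 14.9% of all genes, and the median was −0.097 without and −0.083 with it. AHSG (fetuin A) was at 4274, 5038 and 5412 CPM in Ctrl and 3412, 4858 and 4465 CPM with PRO (−0.18 with the offset, edgeR's adjusted p = 0.141) and albumin (ALB) had a difference of −0.083 with the offset. TM4SF5 was the lowest without the offset (−0.26 with it) and AFP the highest (0.0018). Of 15 tested genes of apolipoproteins and lipoprotein assembly 0 passed (median −0.048, TM6SF2 0.13 to APOA5 −0.31 without the offset), and of 19 acute-phase and plasma proteins 0 passed (median −0.0030, SAA4 0.38 to CP −0.22). Of the markers of other cells, some had no reads. The leukocyte markers PTPRC and CD3E, the endothelial KDR and TEK, the fibroblast marker THY1 and KRT7 had 0 reads in all 6 libraries. Others were expressed, such as CD68 with 297 to 374 reads, ACTA2 with 232 to 335 and PDGFRB with 97 to 160. CD14, a monocyte marker, had 0, 2 and 7 reads in Ctrl and 9, 12 and 11 with PRO, without overlap. Its log2 difference was the highest of all genes tested (1.64, and 1.73 with the offset, SE 0.643), with edgeR's adjusted p = 0.251. The summed fibroblast markers were 21.5 to 27.5 CPM in Ctrl and 14.1 to 19.4 CPM with PRO, and COL1A1 had 35, 14 and 2 reads in Ctrl and 14, 8 and 2 with PRO. The endothelial sum was at most 1.96 CPM. The leukocyte sum was 2080 to 2290 CPM in Ctrl and 2330 to 2530 CPM with PRO, nearly all of it LYZ, and the sum of stellate cell and cholangiocyte markers, mostly RELN, SOX9 and KRT19, was 1570 to 1820 and 1720 to 1840 CPM. The part of these marker differences in the results was not tested. In bulk RNA fewer cells of a type and less RNA per cell cannot be told apart.

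The addition of PRO to cells that also received DHA shares no sample with PRO against Ctrl. DHA + PRO differed from DHA in 1 gene without the offset (0.00841%), SPP1, and in 54 with it (0.454%), 47 higher (0.395%) and 7 lower (0.0589%). Of the 61 genes of PRO against Ctrl, 44 (72.1%) had the same direction there, as had 55.1% of all genes, and 7 passed in both, all in the same direction. These 7 are 11.5% of the one set and 13% of the other. Among them, SPP1 (0.36 and 0.51), RPL11 (0.27 and 0.25) and RPL36AL (0.28 and 0.37) were higher in both, and TXNIP (−0.32 and −0.30) and CTGF (−0.24 and −0.28) were lower in both, on the log2 scale with the offset. SPP1 was at 305, 339 and 332 CPM with DHA and 421, 432 and 486 CPM with DHA + PRO, without overlap. TXNIP was at 173, 175 and 178 CPM and 143, 148 and 129 CPM, also without overlap. PPP1R3C had 18.7, 22.3 and 23.6 CPM with DHA and 19.4, 17.2 and 19.3 CPM with DHA + PRO, which overlapped (−0.20, edgeR's adjusted p = 0.621).

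Genes of low GC content contributed few of these. Of the 16 higher genes with a GC content under 40%, 5 had the same direction in DHA + PRO against DHA, compared with 21 of the 24 others. SPTSSA was at 204, 168 and 108 CPM with DHA and 114, 126 and 170.5 CPM with DHA + PRO. The test of the difference between the PRO effects with and without DHA gave 0 genes without the offset and 6 with it (0.0504%), or 0 with the offset and without the replicate number as a factor (446 genes at an unadjusted p under 0.05 in edgeR). In all 6 the difference was above 0 without DHA and below 0 with it. They were SPTSSA (−0.99 on the log2 scale, edgeR's adjusted p = 0.0132), RNF138 (−0.99, 0.0149), TSPAN13 (−0.73, 0.0236), TMED7 (−0.57, 0.03), LYPLA1 (−0.79, 0.0408) and MICU3 (−1.57, 0.0408). The differences between DHA + PRO and DHA themselves were −0.091, −0.23, −0.25, −0.12, −0.15 and −0.48 in the same order, and none of them passed (edgeR's adjusted p from 0.306 to 0.843).

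At 6 h PRO changed 0 of 11872 genes against Ctrl in both fits, with 563 (4.74%) at an unadjusted p under 0.05 without and 473 (3.98%) with the offset (edgeR), and the lowest adjusted p was 0.873 and 0.223. Of the 61 genes of 24 h, 17 (27.9%) had the same direction at 6 h, as had 46.2% of all genes. TXNIP had a negative difference at both times, with 161, 139.6 and 164 CPM in Ctrl and 129, 108 and 125 CPM with PRO at 6 h (−0.30 with the offset, adjusted p = 0.999). SPP1 and PPP1R3C had differences of −0.018 and −0.013. SPTSSA was at 200.2, 300.0 and 127 CPM with PRO at 6 h, of which replicates 1 and 3 were below the Ctrl samples of the same number. The PRO effects at 24 h and at 6 h differed in 0 genes without and in 4 with the offset (0.0332%), or 0 with the offset and without the replicate number as a factor (482 genes at an unadjusted p under 0.05 in edgeR). These were RNF138 (1.15, edgeR's adjusted p = 0.0201), FOXN2 (0.66, 0.0201) and TOB1 (0.58, 0.0443), higher at 24 h relative to 6 h, and PDLIM2 (−1.06, 0.0332).

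PRO was also compared directly with PCA at 24 h, which uses the same PRO libraries but not Ctrl. Without the offset 59 genes differed (0.496%), 43 higher and 16 lower with PRO. Of the 43, 35 had a GC content under 40%, and all 16 lower genes had one of 50% or more. With the offset 38 genes differed (0.320%), 29 higher and 9 lower. SPTSSA was at 132, 124 and 103 CPM with PCA and PPP1R3C at 21.6, 17.9 and 19.4 CPM, all of which lay outside the range of PRO. SPP1 was at 209.8, 252 and 227 CPM, where no PCA sample reached the lowest PRO sample. TXNIP, with 156, 203 and 199 CPM, overlapped with PRO in replicate 1 of PCA. With the offset SPTSSA (edgeR's adjusted p = 0.0156) and TXNIP (0.0217) passed against PCA, while PPP1R3C (0.154) and SPP1 (0.202) did not. The doses of the 2 compounds differ.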

How the data were processed

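RNA of HepG2 cells was sequenced as TruSeq libraries, and per the labels and the methods of the study reads were aligned with STAR to hg19 (GRCh37) and counted per gene with iRNA-seq. The deposited values are raw counts per gene made by the authors, without normalisation, and strand-specific counting is not stated. Counts of the 18 samples of 24 h were fitted with edgeR 4.0.16 (R 4.3.3) after filterByExpr, with TMM factors, group and replicate number as terms, the quasi-likelihood test and Benjamini-Hochberg adjustment over all genes tested. The 6 h samples were fitted in the same way. PRO and Ctrl samples of the same number correlated in their deviations from the group means (r = 0.341, 0.133 and 0.199 in replicates 1, 2 and 3, across genes, which are not independent replicates), and replicates are independent experiments. PRO replicate 2 correlated more with Ctrl replicate 3 (0.182) than with its own number. With the GC-content offset these were 0.233, 0.0771 and 0.169. The offset came from a smoothing spline with 5 degrees of freedom on the GC content of gene transcripts. SE is the log2 difference divided by the root of F. CPM are given without the offset. The summed levels of marker lists are the exception in scale, as they use raw library totals without TMM factors. DESeq2 1.42.0 was an alternative, as were other scalings, filters, offsets and fits without single libraries. Named genes were the 12 higher and 12 lower with the smallest p in each fit, all tested members of the propionate, receptor and study-named lists, both extremes of every other list and the genes that passed a test of a difference between effects. Some members are not reported here. Members and lists were chosen with earlier results of these data known. Gene start sequences came from RefSeq. The scripts were tested on simulated data.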

Additional observations from a re-analysis of the deposited data

Results flagged for a closer look

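The PRO effect differed between cells with and without DHA in 6 genes, and between 24 h and 6 h in 4, by edgeR's test of the difference itself with the GC-content offset and the replicate number as a factor. Without the offset 0 genes passed either test, as was the case with the offset when the replicate number was left out as a factor (446 and 482 genes at an unadjusted p under 0.05). With DHA minus without DHA the log2 value was −0.99 for SPTSSA (adjusted p = 0.0132), −0.99 for RNF138 (0.0149), −0.73 for TSPAN13 (0.0236), −0.57 for TMED7 (0.03), −0.79 for LYPLA1 (0.0408) and −1.57 for MICU3 (0.0408). The GC contents of these 6 genes were 36.7, 36.8, 41.5, 36.1, 35.2 and 34.9% in the same order. SPTSSA was at 204, 168 and 108 CPM with DHA alone at 24 h and at 109.5, 114 and 96.03 CPM in Ctrl. Neither test of a difference between effects was repeated without single libraries. At 24 h minus 6 h the log2 value was 1.15 for RNF138 (edgeR's adjusted p = 0.0201), 0.66 for FOXN2 (0.0201), −1.06 for PDLIM2 (0.0332) and 0.58 for TOB1 (0.0443). TOB1, an antiproliferative protein, was at 104, 94.8 and 96.4 CPM in Ctrl and 137, 132 and 112 CPM with PRO at 24 h.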

How the results depend on the processing

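The 0 genes of PRO against Ctrl became 61 with the GC-content offset, 58 with an offset for GC content and gene length, 2 with the GC-content offset and no replicate block, 88 without a filter on low counts, 18 with DESeq2's Wald test, 36 with edgeR's likelihood ratio test, 91 in a fit of only the 6 samples and 42 in that fit with the offset. Without the block the count remained 0 (716 genes at an unadjusted p under 0.05 in edgeR). Leaving out 1 library or 1 replicate number gave 0 to 807 genes without the offset, the highest without PRO replicate 2, and 0 to 126 with it (17, 119 and 22 without PRO replicate 1, 2 or 3, and 2, 62 and 15 without Ctrl replicate 1, 2 or 3). Leaving out replicate 2 of every group gave 433 genes without the offset and 126 with it, and leaving out replicate 3 gave 1 and 26. DHA + PRO against DHA gave 1 gene, or 54 with the offset, 0 without the block with or without the offset, 14 without the filter, 27 with the Wald test and 14 with the likelihood ratio test. For the difference between the PRO effects with and without DHA these were 0, and 6 with the offset, 0 without the block with or without the offset, 46 without the filter, 2 with the Wald test and 12 with the likelihood ratio test. PRO against PCA gave 59, or 38, 0 without the block with or without the offset, 682 without the filter, 285 and 379. At 6 h 3 genes passed without the filter, and the difference between 24 h and 6 h gave 4 with the offset, 0 without the block with or without the offset, 111 without the filter, 4 with the Wald test and 5 with the likelihood ratio test. The cause was not tested. Over all settings 35 of the 165 genes followed had both signs, among them SLC16A1, HMGCS1, IDI1, FASN, BSG and ATF3, but 0 of the 34 with the smallest p in either fit. The 34 were chosen by small p in these data, and in the fit without the offset also by one sign in all 3 within-replicate differences. Their stable sign therefore follows largely from that choice. Of those 35, 1 passed with the offset, SEMA6B. ALB turned to a log2 difference of 0.040 without PRO replicate 2 and 0.027 without Ctrl replicate 1 (−0.066 to 0.040 over the fits without 1 library), and SEMA6B to −0.27 and −0.028 (−0.27 to 0.26). With 3 samples a group an exact permutation test could not go below 0.1, and genes at a few CPM, such as TNFSF14, rest on few reads at this depth.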
